A study of Rattus norvegicus with 12 samples.

Results

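The genes described here were 10 genes of the neuronal response to activity: the neuronal pentraxins Nptx1, Nptx2 and Nptxr, neuritin (Nrn1), the secretory granule genes Vgf, Scg2 and Pcsk1, the postsynaptic genes Homer1 and Arc, and the kinase Plk2. They were chosen by symbol, with earlier results of the same libraries in view, so their values below are a description and their directions are not independent evidence. All 10 were found among the 17268 genes of the deposited count table, and all 10 passed the filter on low counts in each comparison.

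The cerebral cortex of adult male Sprague Dawley rats was sequenced in 12 libraries, 3 in each of 4 groups. Sham rats had the carotid surgery without a clot, and Model rats had a clot injected into the middle cerebral artery and no treatment. The rt-PA rats had the same clot and then recombinant tissue plasminogen activator, an enzyme that dissolves clots, at 10 mg/kg and 6 h after the stroke. The rt-PA+Acu rats had the clot and rt-PA at 6 h, and in addition Xingnao Kaiqiao needling at the Shuigou and Neiguan acupoints at 2 h. No group had needling without rt-PA, and the time from stroke to sampling and the part of the cortex taken are not given in the sources used here. The labels number the libraries without naming animals, so p-values measure the spread between libraries, which may in part be technical.

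When excitatory synapses fire, calcium entry activates kinases and the factor CREB. A first wave of transcription factors such as Fos and Egr1 follows, and with it effector genes whose products change the synapse itself. Among these effectors, NPTX1 and NPTX2 are secreted and, with the membrane-bound NPTXR, gather AMPA receptors at excitatory synapses. Nrn1 encodes a surface-anchored protein that promotes neurite growth, Vgf and Scg2 encode granins that are cut into peptides in dense core vesicles, and Pcsk1 encodes a convertase that cuts such precursors. Arc drives the removal of AMPA receptors from the membrane, Homer1 ties metabotropic glutamate receptors to the scaffold, and Plk2 lowers synaptic strength after long excitation.

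The promoters of these genes carry letters that can be read beside the counts. RefSeq windows of 300 bases on the GRCr8 assembly, 250 before and 50 after the annotated start, matched 5 of the 10 genes by symbol: Vgf, Scg2, Plk2, Nptx2 and Homer1. The 150 bases before the start are shown for the first 4, which are the genes with a window that were called higher in Model than in Sham. Capitals mark every match to a searched motif.
Vgf, chr12:25277021-25277170, minus strand: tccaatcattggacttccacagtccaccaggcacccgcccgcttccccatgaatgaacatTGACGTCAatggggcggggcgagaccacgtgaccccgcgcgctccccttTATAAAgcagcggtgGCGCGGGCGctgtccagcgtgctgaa
Scg2, chr9:88256867-88257016, minus strand: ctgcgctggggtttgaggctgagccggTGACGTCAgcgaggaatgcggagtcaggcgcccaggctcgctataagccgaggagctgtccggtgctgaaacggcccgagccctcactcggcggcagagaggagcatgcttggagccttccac
Plk2, chr2:43702386-43702535, plus strand: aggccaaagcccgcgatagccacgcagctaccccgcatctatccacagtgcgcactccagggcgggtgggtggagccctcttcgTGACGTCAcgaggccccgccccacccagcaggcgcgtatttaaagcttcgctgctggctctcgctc
Nptx2, chr12:15162046-15162195, minus strand: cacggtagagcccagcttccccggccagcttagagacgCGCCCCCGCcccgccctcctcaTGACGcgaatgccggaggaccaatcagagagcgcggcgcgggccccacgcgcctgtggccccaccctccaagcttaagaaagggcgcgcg

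The full cAMP response element TGACGTCA, the site that CREB binds, stood at bases -90 to -83 from the start of Vgf, -123 to -116 of Scg2 and -66 to -59 of Plk2. It was in 3 of the 5 windows and in 1.83% of 33469 rat promoter windows of the same length. Its first 5 letters, TGACG, stood alone in Nptx2 at -90 to -86, and were found in 4 of the 5 windows, inside the full element in 3 of them, against 21.2% of all windows. The EGR motif GCGNGGGCG was present in Vgf at -26 to -18 and on the opposite strand in Nptx2 at -112 to -104, and in 4.98% of all windows. TATAAA, searched on the coding strand alone, was in Vgf at -41 to -36 and in 8.80% of all windows, while the other motifs were searched on both strands. The AP-1 motif TGANTCA and the CArG box were in 0 of the 5 windows, against 7.33% and 1.64% of all windows, and the Homer1 window held none of the motifs. These matches are letters in a window and not measured sites, and the counts themselves were made on another assembly, mRatBN7.2.

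**Figure D1:**
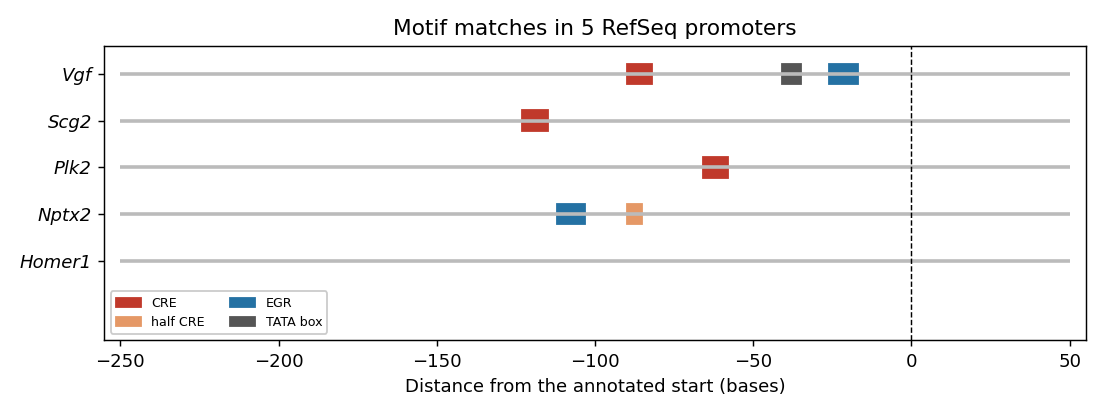
Positions of motif matches in the RefSeq promoters of 5 genes, in bases from the annotated start (dashed line). The full cAMP response element (CRE) lies within 123 bases before the start in Vgf, Scg2 and Plk2. Nptx2 holds only its first 5 letters, TGACG, which 21.2% of all windows hold, and the Homer1 window holds no match.

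Total counts per library lay between 11678450 and 13616935. The 10 genes had 216 to 27962 counts per library, so counting alone gave an error of at most 6.80% of a value. Values are CPM, each count scaled to a common library total after TMM factors, which even out library composition. A gene is called higher or lower where the adjusted p of edgeR's quasi-likelihood test was under 0.05 and the log2 fold change was over 1 in size. The third Model library stood with Sham in 1 ribosomal gene, Rpl39, chosen after its values were seen, at 142 counts against 747 and 793 in the other Model libraries and 105 to 151 in Sham. Without that library the same count of the 10 genes, 7, was called between Model and Sham, and 1330 of all genes were called higher and 1803 lower.

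In the stroke cortex the 10 genes moved in both directions. Nptx2, Nrn1, Vgf, Scg2 and Plk2 were called higher in Model than in Sham, Nptx1 and Arc were called lower, and Pcsk1 was lower below the fold threshold. Homer1 and Nptxr were not called. These are 7 of 10 genes called, where 21.5% of the 12884 genes tested were called, 9.43% higher and 12% lower. The median log2 fold change of the 10 genes was 0.67 and that of all genes tested was 0.01. By the adjusted p alone 8 of 10 passed, against 54% of all genes. In 8 of 10 genes the 3 Model libraries did not overlap the 3 Sham libraries, against 63.5% of all genes.

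Between rt-PA and Model, edgeR called 0 of the 10 genes and 0 of 12941 genes (0%). The smallest adjusted p of edgeR over all genes was 0.0847, a value that Nrn1 held, though not necessarily alone. Before adjustment, 3 of the 10 genes and 241 genes (1.86%) had a p under 0.05 with that fold, and the DESeq2 Wald test called 3 of the 10 genes and 74 genes. In 7 of 10 genes the libraries of the groups were apart, where 15.9% of all genes were, with rt-PA below Model in all 7 against 7.94% of all genes, and the median log2 fold change was -0.59 against 0.00. Model libraries also set the comparison with Sham, so a value high in Model enters both.

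Between rt-PA+Acu and rt-PA, Vgf, Nptx2 and Scg2 were called lower, 3 of 10, where 15.3% of 12999 genes were called, 7.17% higher and 8.16% lower. Nrn1 was also lower by the adjusted p and just missed the fold, so that 4 of 10 passed the adjusted p alone, against 34.8% of all genes. Groups were apart in 4 of 10, against 51.1%. Against Sham, Arc alone of the 10 was called for rt-PA+Acu, lower, where 2.06% of 12775 genes were called and 1.14% were called lower. With Homer1, 2 of 10 passed the adjusted p alone, against 5.1% of all genes, and groups were apart in 5 of 10, against 30.6%.

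**Figure D2:**
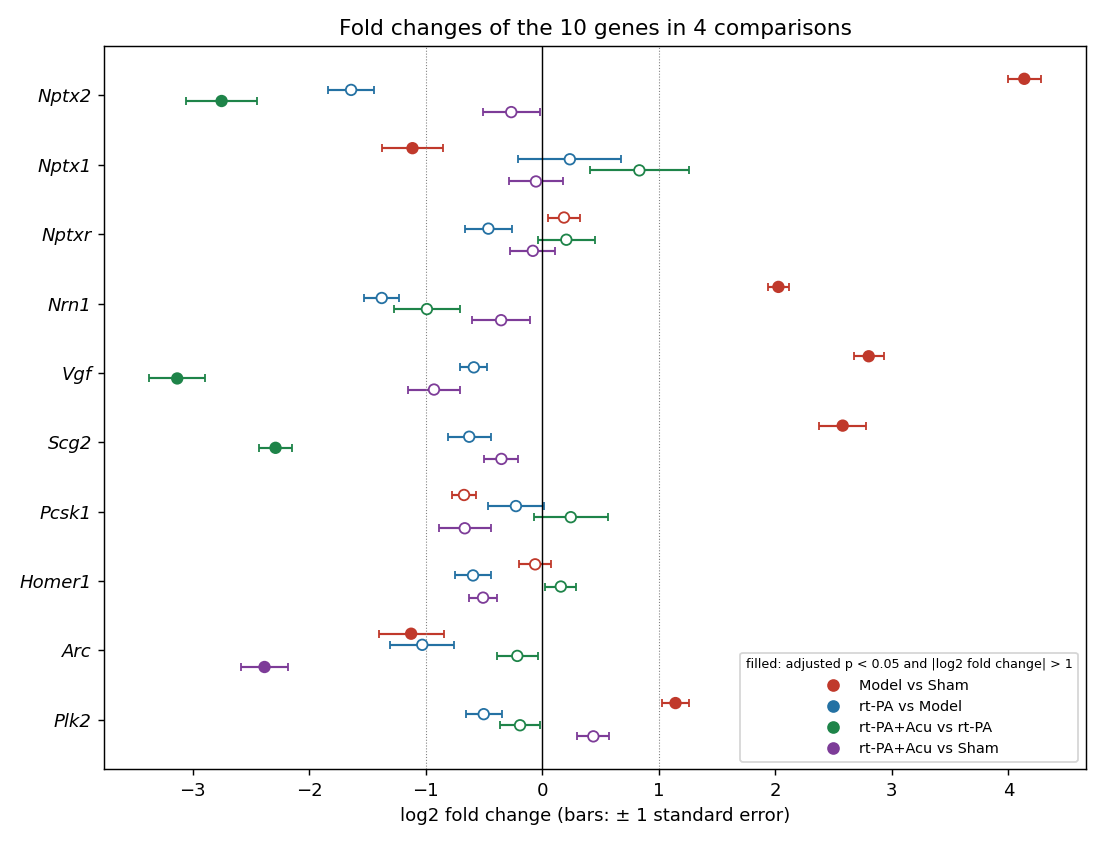
Log2 fold changes of the 10 genes in 4 comparisons, with bars of 1 standard error; filled points passed an adjusted p of 0.05 and a fold of 1 on the log2 scale. Nptx2, Vgf and Scg2 have filled points above 2 for Model over Sham and below -2 for rt-PA+Acu over rt-PA, while Arc has a filled point at -2.38 for rt-PA+Acu over Sham.

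Nptx2, also named Narp, was the gene of the 10 with the largest rise in the stroke cortex. It measured 70.1, 63.0 and 87.6 CPM in the 3 Sham libraries and 1288, 1364 and 1201 CPM in the 3 Model libraries. The groups were far apart, and the log2 fold change was 4.14 (SE 0.14, adjusted p 3.41e-06, edgeR), a 17.6-fold higher level that ranked 111 of 12884 genes from the top. The rt-PA libraries measured 366, 322 and 545 CPM, below every Model library and above every Sham library. Their log2 fold change to Model was -1.64 (SE 0.19, adjusted p 0.0940, edgeR), which missed the threshold. It ranked 15 from the bottom of 12941 genes. The DESeq2 Wald test called Nptx2 lower here (adjusted p 9.84e-13), in a range of 9.84e-13 to 0.429 over the alternatives. The rt-PA+Acu libraries measured 55.7, 42.4 and 84.9 CPM and overlapped Sham. Nptx2 was 6.73-fold lower with needling than without (log2 fold change -2.75, SE 0.31, adjusted p 0.00153, edgeR), and its log2 difference to Sham was -0.27 (SE 0.24, adjusted p 0.550). Nptx2 is also among the genes that the study picked on these samples.

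Nptx1, its close relative, went the other way. Sham libraries held 414 to 441 CPM, and the Model libraries 118, 188 and 283 CPM, all below Sham. Nptx1 was 2.16-fold lower in Model (log2 fold change -1.11, SE 0.26, adjusted p 0.00704, edgeR). Without the first Model library the value was -0.85, under the fold threshold, with an adjusted p of 0.00389 in a range of 2.21e-05 to 0.0338 over the alternatives. The rt-PA libraries spread over 122, 186 and 384 CPM and the rt-PA+Acu libraries over 279, 384 and 572 CPM, so these groups overlapped each other and Model or Sham. The log2 fold change of rt-PA+Acu over rt-PA was 0.83 (SE 0.42, adjusted p 0.163, edgeR). The second rt-PA library decided that value: without it the change was 1.41 with an adjusted p of 0.0237, in a range of 0.0237 to 0.432 over the alternatives.

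Nptxr, the membrane-bound partner, overlapped between all neighbouring groups. Its group means were 1595 ± 140 CPM for Sham, 1802 ± 314 for Model, 1305 ± 323 for rt-PA and 1508 ± 399 for rt-PA+Acu (SD, n = 3 each). Its log2 fold changes ran from -0.46 (SE 0.20) for rt-PA over Model to 0.21 (SE 0.24) for rt-PA+Acu over rt-PA, and no comparison was called. The 3 pentraxins therefore held 3 patterns, a rise in Nptx2, a fall in Nptx1 and no call in Nptxr.

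Nrn1 followed the order Model, rt-PA, Sham, rt-PA+Acu. It measured 211, 189 and 222 CPM in Sham and 850, 831 and 834 CPM in Model, a 4.07-fold rise (log2 fold change 2.03, SE 0.09, adjusted p 4.61e-06, edgeR). The Model libraries had a mean of 838 ± 10.2 CPM (SD, n = 3), a coefficient of variation of 1.21%. The rt-PA libraries, at 303, 265 and 398 CPM, lay between Sham and Model without touching either. Their log2 difference to Model was -1.38 (SE 0.15, adjusted p 0.0847, edgeR), 27 from the bottom of all genes tested. The DESeq2 Wald test called Nrn1 lower here (adjusted p 3.48e-13), in a range of 3.48e-13 to 0.346 over the alternatives. The rt-PA+Acu libraries, at 210, 181 and 96.8 CPM, overlapped Sham. They were 1.99-fold lower than rt-PA (log2 fold change -0.99, SE 0.29, adjusted p 0.0316, edgeR), which passed the p and not the fold. Both were passed with library size alone, at -1.10, without the second rt-PA library, at -1.11, and without the first rt-PA+Acu library, at -1.21. Over the alternatives the value ran from -1.21 to -0.71 and the adjusted p from 0.00295 to 0.102, so the p was not passed in all of them.

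The neurosecretory genes Vgf and Scg2 rose and fell together. Vgf, whose product is cut into peptides that act on feeding and synaptic strength, measured 193, 191 and 152 CPM in Sham and 1376, 1188 and 1146 CPM in Model. The rise was 6.97-fold (log2 fold change 2.80, SE 0.13, adjusted p 4.82e-06, edgeR). The rt-PA libraries stayed high at 876, 728 and 860 CPM, below every Model library, with a log2 difference of -0.59 (SE 0.12, adjusted p 0.284). With needling they were 64.9, 93.0 and 123 CPM, below every Sham library. The rt-PA+Acu level of Vgf was 8.77-fold below that of rt-PA (log2 fold change -3.13, SE 0.24, adjusted p 0.00104, edgeR), the largest fall among the 10 genes in that comparison. Against Sham the log2 difference was -0.93 (SE 0.22, adjusted p 0.0523), short of both thresholds. It passed both without the third rt-PA+Acu library, at -1.18 with an adjusted p of 0.0115, in a range of 0.00137 to 0.189 over the alternatives.

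Scg2, which encodes secretogranin II, the precursor of secretoneurin, measured 233, 198 and 166 CPM in Sham and 1529, 974 and 1031 CPM in Model. It was 5.97-fold higher in Model (log2 fold change 2.58, SE 0.20, adjusted p 4.07e-05, edgeR). The rt-PA libraries measured 669, 843 and 771 CPM, and the rt-PA+Acu libraries 145, 148 and 175 CPM. All rt-PA libraries lay between the Sham and Model ranges, and rt-PA+Acu overlapped Sham. Between these groups Scg2 was 4.88-fold lower with needling (log2 fold change -2.29, SE 0.14, adjusted p 0.00104, edgeR), and its log2 difference to Sham was -0.35 (SE 0.15, adjusted p 0.197).

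Pcsk1, the convertase that acts on such precursors, did not rise with them. It measured 40.7 to 45.2 CPM in Sham and 24.5 to 28.3 CPM in Model, with no overlap, and was 1.59-fold lower (log2 fold change -0.67, SE 0.11, adjusted p 0.00107, edgeR), under the fold threshold. In rt-PA it ranged from 15.0 to 30.3 CPM and in rt-PA+Acu from 17.2 to 33.3 CPM. Both groups lay below every Sham library and overlapped each other and Model, and the difference of rt-PA+Acu to Sham was -0.66 on the log2 scale (SE 0.22, adjusted p 0.127).

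**Figure D3:**
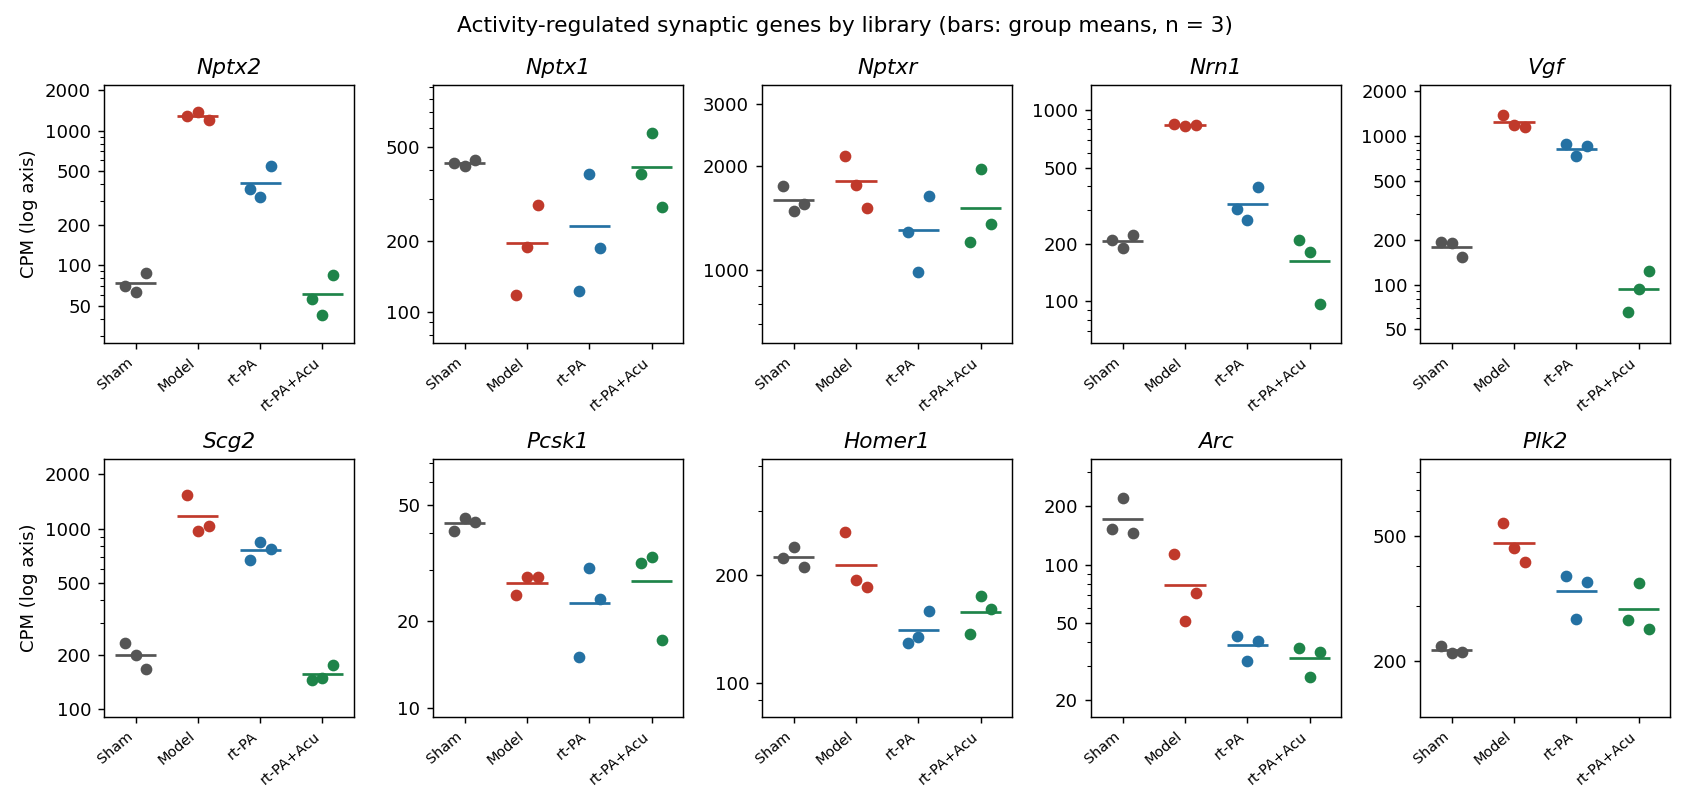
CPM of each of the 10 genes in the 12 libraries on a log axis, with 1 point per library and bars at the means of 3 libraries. Nptx2, Nrn1, Vgf and Scg2 are highest in Model, lower in rt-PA and near or below Sham in rt-PA+Acu, while Arc is highest in Sham and lowest in rt-PA+Acu.

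Arc and Homer1 showed another order. Arc, which binds its own messenger and removes AMPA receptors from spines, measured 153, 220 and 146 CPM in Sham and 113, 51.4 and 71.3 CPM in Model. It was 2.18-fold lower in Model (log2 fold change -1.12, SE 0.28, adjusted p 0.00947, edgeR), with no overlap. Without the second Sham library the value was -0.92 with an adjusted p of 0.0370, and without the second Model library -0.89 with 0.0255, in a range of 6.97e-05 to 0.0370 over the alternatives, so the fold then fell under the threshold. The rt-PA libraries measured 43.2, 31.9 and 40.3 CPM, below every Model library. That log2 difference was -1.03 (SE 0.27, adjusted p 0.345, edgeR), and it was called by DESeq2 with an adjusted p of 0.0215, in a range of 0.0215 to 0.679 over the alternatives. The rt-PA+Acu libraries measured 37.5, 26.4 and 35.6 CPM and overlapped rt-PA, with a log2 difference of -0.21 (SE 0.18, adjusted p 0.379). Arc was 5.22-fold lower in rt-PA+Acu than in Sham (log2 fold change -2.38, SE 0.20, adjusted p 0.00188, edgeR), ranking 15 from the bottom of 12775 genes.

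Homer1 counts pool the long scaffold forms and the short, activity-induced Homer1a, which a count per gene cannot tell apart. Sham libraries held 210.5 to 239.3 CPM and Model libraries 185 to 262 CPM, and they overlapped (log2 difference -0.06, SE 0.14, adjusted p 0.736). The rt-PA libraries, at 129 to 159 CPM, lay below every Sham and Model library, with a log2 difference to Model of -0.59 (SE 0.15, adjusted p 0.336, edgeR). The rt-PA+Acu libraries, at 137 to 174 CPM, were 1.42-fold lower than Sham (log2 fold change -0.51, SE 0.12, adjusted p 0.0486, edgeR), which passed the p and not the fold. Over the alternatives this adjusted p ran from 0.00281 to 0.199, so the pass was not kept in all of them.

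Plk2, an activity-induced kinase that acts on the spine protein SIPA1L1 (SPAR), rose in the stroke cortex from 212 to 224 CPM in Sham to 552, 457 and 414 CPM in Model. The rise was 2.21-fold (log2 fold change 1.14, SE 0.12, adjusted p 0.000127, edgeR). The rt-PA libraries held 273 to 372 CPM, below every Model library, and the rt-PA+Acu libraries 253 to 355 CPM, still above every Sham library. Neither step was called: the log2 differences were -0.50 (SE 0.15, adjusted p 0.376) for rt-PA over Model and -0.19 (SE 0.17, adjusted p 0.426) for rt-PA+Acu over rt-PA. The difference of rt-PA+Acu to Sham was 0.44 (SE 0.14, adjusted p 0.109, edgeR).

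The 10 genes together took 0.307% to 0.341% of all counts in Sham libraries, 0.687% to 0.826% of those in Model, 0.412% to 0.519% with rt-PA and 0.241% to 0.340% with needling added. Across the 12 libraries Vgf and Scg2 had a Pearson r of 0.98 in log2 CPM, and Nptx2 had 0.96 with Scg2 and 0.95 with Vgf. These points share the 4 groups, and within groups the same values were 0.49, 0.05 and 0.33. Homer1 and Arc had 0.82 over all libraries and 0.46 within groups. Among the 5 genes with a pattern most like that of Nptx2 over 12 libraries were Mustn1 (r 0.98), Rock2 (0.98), Noct (0.98) and Arhgap31 (0.98), with within-group values of 0.39 to 0.62. For Arc, whose log2 fold change in Model of -1.12 was next to the -1.11 of Nptx1, the 5 were Mapk8ip1 (r 0.97), Ntng2 (0.95), Ankrd63 (0.94), Gpr27 (0.93) and Acsl3 (0.92), with within-group values of 0.19 to 0.70. These likenesses are descriptions over libraries that share groups, and they are given without a test.

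In tissue RNA, fewer cells of a type and less RNA per cell cannot be told apart, so the 10 genes were also set against 15 neuron marker genes in the same library. The summed markers were 10132 to 11372 CPM for Sham, 9569 to 9675 for Model, 7792 to 9213 for rt-PA and 9083 to 12820 for rt-PA+Acu. The markers did not move as one in Model against Sham: by the adjusted p alone Eno2, Gad1, Gad2 and Tubb3 were higher and Map2, Rbfox3, Slc17a7 and Syt1 lower, of which Map2 and Rbfox3 passed the fold. In rt-PA+Acu against rt-PA, 6 were higher and 1 lower by the adjusted p alone, and Slc17a7 was called higher. Per 1000 neuron marker counts, the log2 differences of Model to Sham were 4.28 for Nptx2, 2.94 for Vgf, 2.69 for Scg2, 2.16 for Nrn1 and 1.27 for Plk2. They were -1.07 for Nptx1, -1.05 for Arc and -0.54 for Pcsk1, and the libraries of the groups were apart for all 8 genes, as they were in CPM, with pooled SDs of 0.042 to 0.49 within groups. In rt-PA against Model the libraries were apart for 5 genes, where they were for 7 in CPM. Nptx2 lay at -1.54, Nrn1 at -1.26, Scg2 at -0.46, Vgf at -0.45 and Homer1 at -0.44 without overlap, while Arc at -0.82 and Plk2 at -0.37 overlapped. From rt-PA to rt-PA+Acu the differences were -3.55 for Vgf, -3.15 for Nptx2, -2.66 for Scg2, -1.41 for Nrn1 and -0.56 for Plk2, these 5 without overlap. Against Sham, in rt-PA+Acu, Arc lay at -2.46, Pcsk1 at -0.80, Homer1 at -0.60, Nrn1 at -0.51 and Plk2 at 0.34, without overlap, and Vgf at -1.06 with overlap. No test was run on these ratios.

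**Figure D4:**
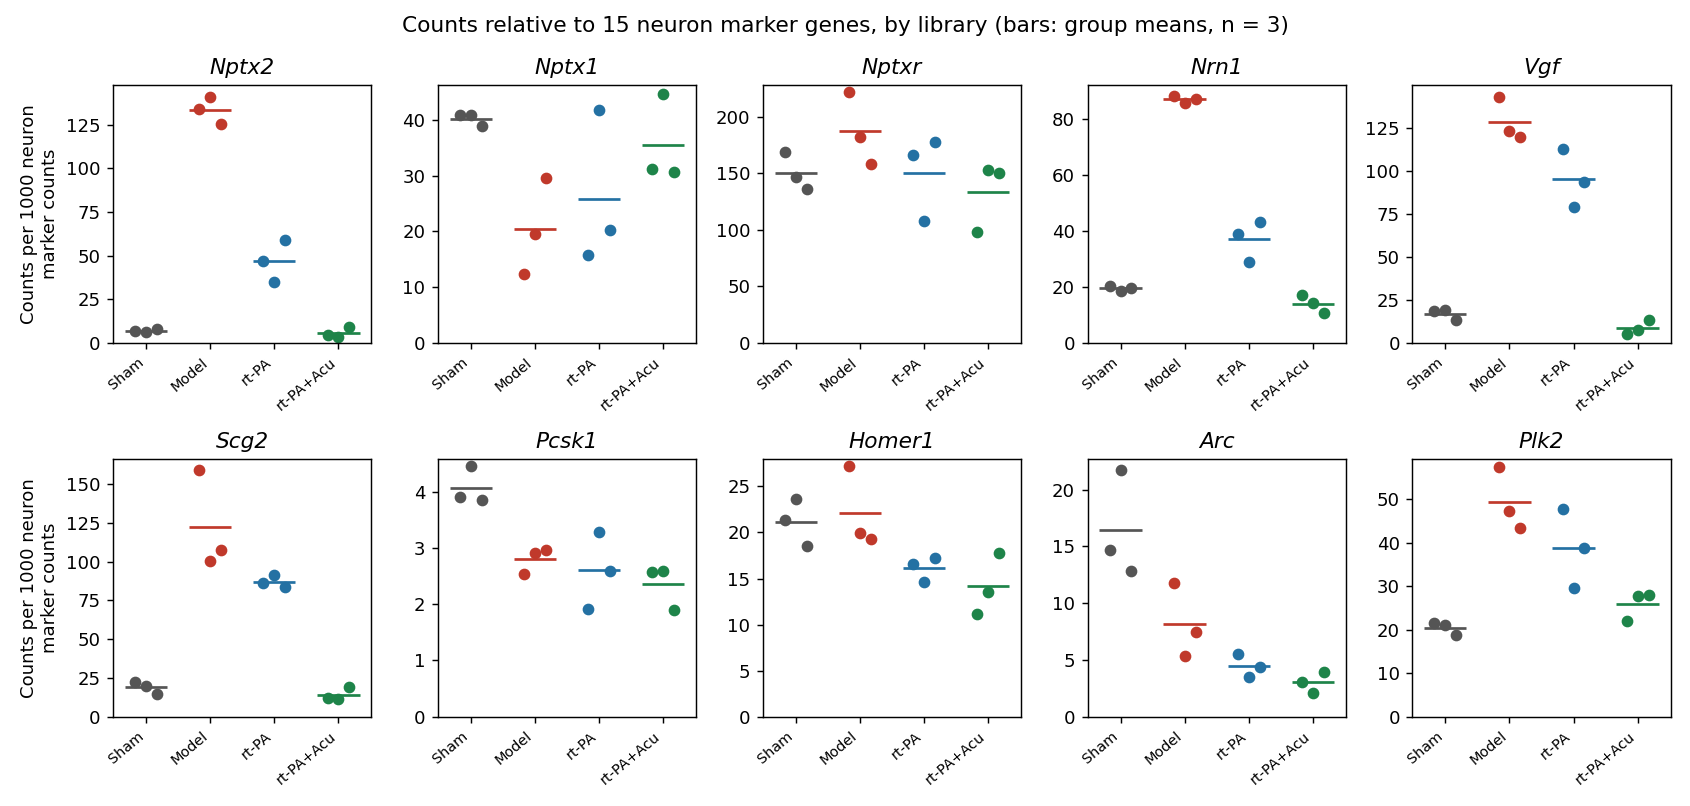
Counts of each gene per 1000 summed counts of 15 neuron marker genes, with 1 point per library and bars at the means of 3 libraries. The order of the groups in Nptx2, Vgf, Scg2 and Nrn1 is that of the CPM values, with Model highest and rt-PA+Acu at or below Sham.

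Markers of other cells moved between the groups as well. The 7 striatal markers summed to 437 to 1092 CPM for Sham, 172 to 269 for Model, 169 to 245 for rt-PA and 243 to 317 for rt-PA+Acu. All 7 were called lower in Model than in Sham and 6 of 7 lower in rt-PA+Acu than in Sham, and Arc was called lower in both comparisons. Their part in the value of Arc was not tested. The 10 markers of monocytes, macrophages and neutrophils summed to 57.4 to 66.9 CPM for Sham, 170 to 247 for Model, 230 to 495 for rt-PA and 32.2 to 49.7 for rt-PA+Acu. Of these, 5 were called higher in Model than in Sham and 9 lower for rt-PA+Acu than rt-PA, with Ms4a7 at 0 in Sham and Mmp8 at 0 in rt-PA+Acu. The 4 hippocampal markers summed to 9.05 to 13.2, 27.7 to 46.9, 34.6 to 44.3 and 6.96 to 11.03 CPM in the same order of groups, and the change was mostly that of 1 gene, Dsp, called higher in Model and lower with needling. Its means were 5.19, 28.4, 30.4 and 1.92 CPM, while those of Prox1 were 5.38, 6.70, 8.73 and 6.68 CPM, and Tdo2 and Lct had 0 to 14 counts per library. The 5 endothelial markers in the table summed to 122 to 166, 194 to 348, 237 to 353 and 75.5 to 86.4 CPM, with 1 called each way in Model and 3 lower with needling. These 3 sums, of blood-derived cells, hippocampus and endothelium, were higher in Model than in Sham and lower with needling than without, with no overlap, as Nptx2, Vgf and Scg2 were, and their part in those results was not tested.

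The 8 oligodendrocyte markers summed to 12352 to 18427 CPM for Sham, 1783 to 8919 for Model, 2819 to 12029 for rt-PA and 3388 to 21776 for rt-PA+Acu, and 5 were called lower in Model. The 8 astrocyte markers summed to 6598 to 7609, 4833 to 6723, 5256 to 6271 and 6951 to 8342 CPM in the same order, with 6 called lower and 1 higher in Model and 4 higher with needling. The 5 homeostatic microglia markers in the table summed to 225 to 263, 87.1 to 94.5, 91.3 to 106 and 155 to 193 CPM, with Siglech at 0 outside rt-PA, 3 of 4 tested called lower in Model and 2 higher with needling. Choroid plexus markers summed to 2.02 to 3.83, 11.2 to 48.6, 10.8 to 69.5 and 3.49 to 15.4 CPM, meningeal markers to 50.6 to 145, 28.01 to 71.7, 74.5 to 257 and 62.5 to 152 CPM, and ependymal markers to 8.80 to 28.1, 4.06 to 4.96, 2.77 to 3.66 and 9.34 to 12.5 CPM. Defining markers were at 0 among them, with Clic6 at 0 in Sham, Folr1 in Model and rt-PA, Ttr in rt-PA+Acu, and Tmem212 in the 3 stroke groups. None of these lists was tested as a source of the 10 genes' values.

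The transcription factors that activity induces did not move as one. For single genes, values in this and the following paragraphs are log2 fold changes, and genes beyond the 3 largest changes of a list in Model were named after their values were seen. Of 16 factors tested, 5 were called higher in Model and 2 lower, beside 9.43% and 12% of all genes, the median log2 fold change being 0.71. Atf3, a stress-induced factor, stood at 3.33 (adjusted p 0.0136, edgeR), and Jun at 2.10 (adjusted p 3.05e-05). The first Sham library held 114 Atf3 counts against 6 and 5 in the others, and without it the value was 6.21. Crem, which encodes factors that bind the cAMP response element, was at 1.74, Ier2 at 1.27 and Fosl2 at 1.24. The orphan nuclear receptors Nr4a2 and Nr4a1 were the 2 called lower, at -2.61 (adjusted p 0.000726, edgeR) and -1.60.

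With needling added to rt-PA, 8 of the 16 factors were called lower and 0 higher, beside 8.16% and 7.17% of all genes, with a median of -1.45. Among those lower were Atf3 at -4.25, Crem at -2.23 and Jun at -1.77, while Nr4a2 was at 0.54 and not called. Set against Sham, 6 of 16 were called lower in rt-PA+Acu, beside 1.14% of all genes, with a median of -1.26. Arc was called lower in that comparison as well as in Model. The 6 factors were Egr2 at -3.24, Nr4a2 at -2.44, Egr4 at -2.07, Egr1 at -1.72, Nr4a1 at -1.68 and Egr3 at -1.26. Nr4a2 lost this call without the second Sham library, at -2.26. Egr1 and Egr4 had not been called in Model, at -0.41 and -0.13. Egr2 and Egr3 had not been called there either, but their means were higher in Model than in Sham. They were 32.8 against 18.4 CPM for Egr2 and 124 against 83.3 CPM for Egr3.

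Other activity-induced effector genes moved mostly the way of Nptx2 and Vgf. Of 21 tested, 15 were called higher and 1 lower in Model, beside 9.43% and 12% of all genes, with a median of 1.21. Inhba, the activin subunit that neurons induce with activity, was at 5.01 (adjusted p 3.83e-05, edgeR), Ptgs2, the inducible cyclooxygenase, at 4.03 (adjusted p 5.96e-05) and Gadd45g, a growth arrest gene, at 3.99 (adjusted p 4.31e-06). The clock gene Per1 was the 1 called lower, at -1.09, a call lost with DESeq2, with library size alone and without any 1 of the 3 Sham libraries or the first or second Model library.

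From rt-PA to rt-PA+Acu, 12 of these 21 effectors were called lower and 0 higher, beside 8.16% and 7.17% of all genes, with a median of -1.56. Among those lower were Inhba at -3.81, Gadd45g at -3.24 and Ptgs2 at -2.05. Ptgs2 missed the adjusted p without the second rt-PA+Acu library, at -1.93. Against Sham the median was -0.22 and 3 of 21 were called lower, beside 1.14% of all genes. They were the hormone gene Crh at -1.75, the neurotrophin gene Bdnf at -1.11 and the phosphatase gene Dusp6 at -1.07. Crh and Bdnf lost the call without any 1 Sham library, Crh also without the second rt-PA+Acu library and Bdnf, at -0.91, without the third. Dusp6 lost it without the second Sham library, at -0.98. Bdnf is also among the genes the study picked on these samples.

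Among the kinases and cofactors that carry the calcium signal to the nucleus, the genes called lay the other way. Of 20 tested, 0 were called higher and 7 lower in Model, beside 9.43% and 12% of all genes, with a median of -0.53. By the adjusted p alone 3 were higher and 12 lower. Camkk2, a kinase that activates other calmodulin kinases, stood at -2.80 (adjusted p 4.04e-05, edgeR), Camk2a, the main postsynaptic calmodulin kinase, at -2.30 (adjusted p 6.02e-06) and Mef2c, an activity-regulated factor, at -1.67 (adjusted p 1.93e-05). With needling, 4 of 20 were called higher than rt-PA and 0 lower, where 7.17% of all genes were called higher, and the median was 0.53. By the adjusted p alone 9 were higher and 3 lower. Among these were Camkk2 at 1.98, Mef2c at 1.77 and Camk2a at 1.75.

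Partners of the 10 genes at the synapse were called in both directions in the stroke cortex, where 9.43% of all genes were called higher and 12% lower. Among 17 genes for AMPA receptor subunits, their auxiliary proteins and synaptic organisers, 1 was called higher and 5 lower in Model, with a median of -0.28. C1ql2, a secreted synaptic organiser, stood at 2.45 (adjusted p 0.00166, edgeR) with 7 to 13 counts per Sham library, and a minimum of 10 counts in every library left 0 genes of the list called higher. The AMPA receptor auxiliary genes Cnih2 and Cacng3 were at -1.80 (adjusted p 1.44e-05) and -1.43 (adjusted p 0.000213). The subunit genes Gria2 and Gria4 were at -1.31 and -1.17, and the auxiliary gene Shisa9 at -1.19. With needling, 4 of 17 were called higher than rt-PA and 0 lower, beside 7.17% and 8.16% of all genes, with a median of 0.60. They were Cacng3 at 1.904, Gria2 at 1.38, Gria4 at 1.28 and Cnih2 at 1.22, the last at 0.99 without the second rt-PA+Acu library.

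Of 16 genes of the Homer family and its partners, 6 were called lower and 1 higher in Model, beside 12% and 9.43% of all genes. Their median was -0.79. The glutamate receptor gene Grm5, whose product Homer1 binds, was at -2.30 (adjusted p 4.31e-06, edgeR), and the scaffold gene Dlgap3 at -1.80 (adjusted p 5.83e-05). Homer3, a relative of Homer1, was the gene called higher, at 1.71. It measured 15.2 to 24.5 CPM in Sham, 57.2 to 70.9 in Model, 52.5 to 67.4 with rt-PA and 16.2 to 23.7 with needling. Unlike those of Nptx2, its Model and rt-PA libraries overlapped, and they lay above every Sham and rt-PA+Acu library. With needling, 4 of the 16 were called higher than rt-PA and 1 lower, beside 7.17% and 8.16% of all genes, with a median of 0.49. Among those higher were Grm5 at 2.26, Shank2 at 1.39 and Dlgap3 at 1.14, and Homer3 at -1.64 was the 1 called lower. Dlgap3 was under the fold, at 0.99, without the second rt-PA library. Against Sham, 2 of 16 were called lower, beside 1.14% of all genes, the scaffold genes Dlgap3 at -1.21 and Shank3 at -1.08. Shank3 lost the call without the second Sham or the third rt-PA+Acu library.

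Of 8 Polo-like kinases and substrates, 2 were called higher and 3 lower in Model, beside 9.43% and 12% of all genes, with a median of 0.46. Plk5, a brain member of the family without a working kinase domain, was at -3.90 (adjusted p 0.000313, edgeR) with 2 to 13 counts per Model library, Sipa1l1, a spine protein that Plk2 acts on, at -1.49 (adjusted p 9.61e-05), and the centriole kinase gene Plk4 at 1.38 (adjusted p 0.00349). Plk3, another inducible kinase, was at 1.06, a call lost without the third Sham or the third Model library. From rt-PA to rt-PA+Acu, Plk5 at 3.07 was called higher and Plk3 at -1.22 lower, beside 7.17% and 8.16% of all genes. The median was 0.23.

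Of 18 other dense core vesicle genes, 1 was called higher and 2 lower in Model, 3 of 18 where 21.5% of all genes were called, with a median of -0.20. Cadps2, which primes such vesicles, was at -1.96 (adjusted p 0.000324, edgeR), the granin gene Scg3 at -1.16 (adjusted p 8.44e-05) and the peptide-amidating enzyme gene Pam at 1.13 (adjusted p 2.94e-05). With needling, the median was 0.28 and 0 were called lower than rt-PA. Cadps2 at 1.27 was called higher, 1 of 18 where 7.17% of all genes were. Among the fits without 1 library, that call was lost without the first or the third rt-PA library and without the first or the second rt-PA+Acu library. Between rt-PA and Model, edgeR called 0 genes of these 7 lists, and DESeq2 called 4, all lower, 3 of them transcription factors and 1 an effector.

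**Figure D5:**
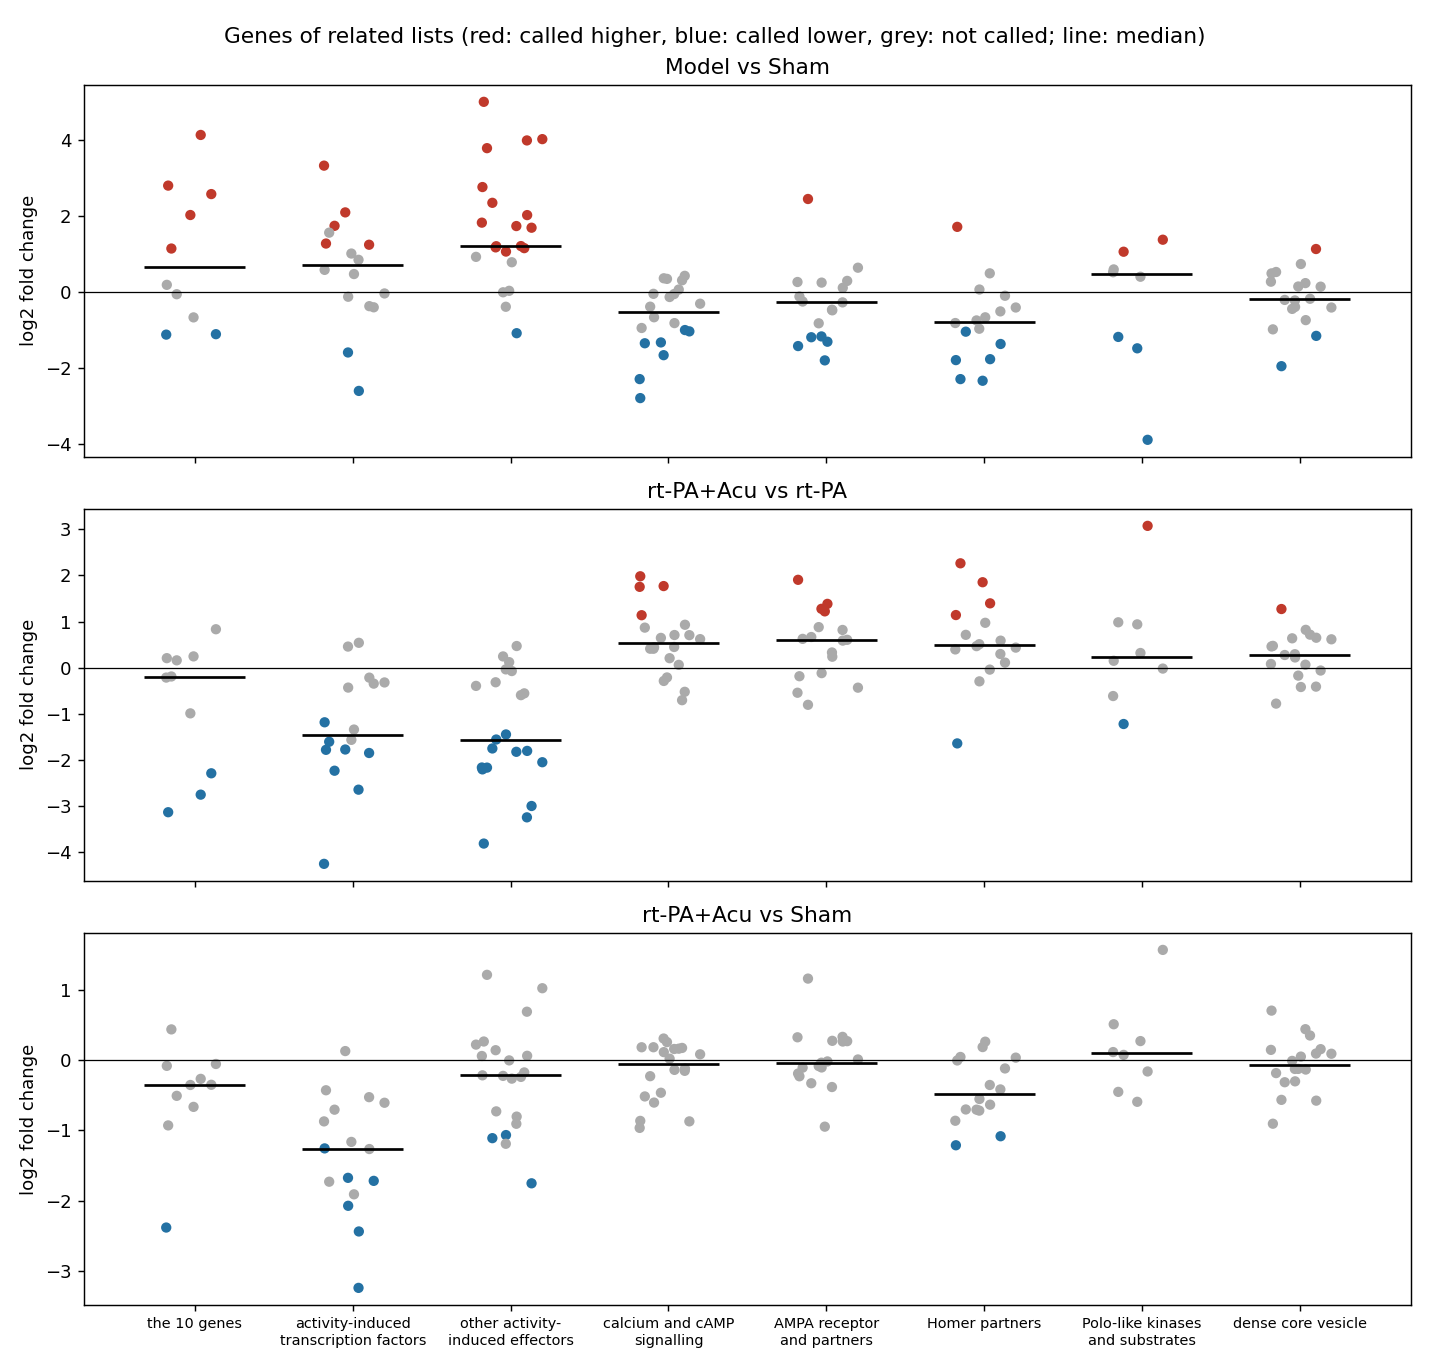
Log2 fold changes of the 10 genes and of 7 lists of related genes in 3 comparisons, with 1 point per gene, red for called higher, blue for called lower, grey for not called, and a line at the median. The 2 lists of activity-induced genes have medians of 0.71 and 1.21 in Model over Sham and of -1.45 and -1.56 in rt-PA+Acu over rt-PA, and the calcium and cAMP signalling list has medians of -0.53 and 0.53.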

How the data were processed

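Groups are those of the deposited labels. The authors aligned paired-end reads of 150 bases to mRatBN7.2 with STAR 2.7.10a and deposited whole-number counts for each gene symbol, which are not normalized. Salmon 1.9.0 and featureCounts 2.0.1 are both named for the counting, and how they shared it, whether strand was used and whether molecular identifiers were collapsed are not given in the sources used here.

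Each comparison was fitted on its own 6 libraries in R 4.3.3 with edgeR 4.0.16 (TMM, filterByExpr, glmQLFit and glmQLFTest), and p-values were adjusted by Benjamini-Hochberg over all genes tested. The standard error is the log2 fold change over the root of F. The DESeq2 1.42.0 Wald test was an alternative, as were edgeR with DESeq2 size factors and edgeR with library size alone. Further alternatives were no filter beyond 1 count, a minimum of 10 counts in every library, and 1 fit over 12 libraries. The replicate block and leaving out each library completed the set. Fits were tested on simulated data. Likeness was taken over 13298 genes in log2 CPM (prior count 2).

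The 10 genes, 7 related lists and 11 cell type lists were chosen with earlier results of these data known. Named by rule were all 10 genes, the 3 largest called changes per related list in Model against Sham, and the 5 genes most like Nptx2 and Arc. Figures were drawn with matplotlib 3.10.9. Some genes that these rules would name are counted in their lists but not reported by name here.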

Additional observations from a re-analysis of the deposited data

How the results depend on the processing

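Over the 10 genes and 4 comparisons, 498 of 520 alternative values kept their direction and side of the threshold, 10 came to pass it, 3 lost it and 9 changed sign. Homer1 in Model against Sham was 0.0062 with library size alone and -0.24 to 0.037 without 1 library. Leaving out 1 library also turned Nptx1 (-0.35 to 0.59) and Pcsk1 (-0.48 to 0.00465) in rt-PA against Model, Nptxr (-0.023 to 0.40) in rt-PA+Acu against rt-PA, and Nptx1 (-0.37 to 0.16) and Nptxr (-0.31 to 0.063) in rt-PA+Acu against Sham; none of these was called. Plk4, of the related lists, ran from -1.14 to 0.36 in rt-PA+Acu against rt-PA. It passed both thresholds without the third rt-PA+Acu library (adjusted p 0.0210) and in no other of these fits. Without 1 library, 6 to 7 of the 10 genes were called in Model against Sham, 1 to 2 of them lower, beside 2511 to 3133 of all genes called.

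Between rt-PA and Model, DESeq2 called 3 of the 10 genes, all lower, and 74 genes, 1 fit over 12 libraries called 2 genes, and leaving out 1 library gave 0 to 2 of the 10 genes and 0 to 3 genes. Nptx2 at -1.91 and Nrn1 at -1.57 were called without the third rt-PA library. From rt-PA to rt-PA+Acu, 3 to 5 of the 10 genes were called without 1 library, 0 to 1 of them higher and 3 to 4 lower. In the same fits 1445 to 2510 of all genes were called. For rt-PA+Acu against Sham, DESeq2 called 422 genes, leaving out 1 library 82 to 359, and 1 to 2 of the 10 genes, all lower. The cause of these changes was not tested.

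The labels do not say whether replicate numbers pair the libraries, and same-number correlations, from -0.12 to 0.15, cannot settle it. With the replicate block, 2756, 0, 1862 and 194 genes were called in the 4 comparisons, and 7, 0, 3 and 1 of the 10 genes. Of the related genes named, Cadps2 in rt-PA+Acu against rt-PA (1.17, adjusted p 0.0730) and Crh in rt-PA+Acu against Sham (-1.71, adjusted p 0.0843) were not called with the block. In Model against Sham, where correlations were 0.11, 0.07 and 0.05, each library correlated best with its own number. In each of the other comparisons most libraries correlated best with another number. The match in Model against Sham is at most a hint from the data and not from the design. With 3 libraries a group, differences under the spread between libraries were not detectable.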
